A study of Homo sapiens with 15 samples.

Results

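The AP-1 family is described here through 9 of the 19966 genes in the table: the FOS genes FOS, FOSB, FOSL1 and FOSL2, the JUN genes JUN, JUNB and JUND, and the related genes ATF3 and MAFF. They were chosen by name, and each has an entry. They were measured by RNA sequencing in 293T, a cell line derived from human embryonic kidney and transformed with adenoviral DNA, to which the SV40 large T antigen was later added. Fed cells had serum throughout (starvation for 0 h, genotype WT), starved cells went without serum for 12 h (genotype WT), and knockdown cells went without serum for 12 h and carried a short hairpin RNA against the splicing factor SRSF1 (genotype SRSF1 knockdown). Each of these groups has 3 libraries. The series also lists 6 samples with SRPK1 or UPF1 knockdown, which were not analysed here. Libraries labelled as having a non-targeting hairpin number 0, and the labels do not say how the hairpin was delivered, so carrying a hairpin and having less SRSF1 cannot be told apart. Whether the replicates of a group were grown separately is not stated, so p-values measure only the spread between these libraries, which may be technical.

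AP-1 is a transcription factor made of pairs of basic leucine zipper proteins. FOS proteins bind DNA in a pair with a JUN protein, whereas JUN proteins can also pair with each other. The pairs bind the site TGACTCA and, with ATF partners, the longer cyclic AMP response element. FOS and FOSB are immediate early genes: serum and growth factors switch them on within minutes through the ERK pathway and the factors ELK1 and SRF, and their messages are short lived. ATF3 is induced by many stresses, and MAFF is a small MAF protein that lacks a transactivation domain. The title of the series names MAPK signalling, of which AP-1 is a classical endpoint.

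The 8 libraries whose recovered reads were used held 11775367 to 15231651 reads in genes. Of the table's genes, 11123 reached 1 FPKM (normalized count per kilobase, scaled to the mean library total) in at least 3 libraries and were tested with limma on log2(FPKM + 1). Knockdown replicate 3 stood apart, with correlations of 0.976 and 0.969 across genes with the other 2 knockdown libraries, against 0.994 between those. Of 8 genes listed as markers of this line, 6 passed the filter, among them the neurofilament genes NEFL and NEFM, and PAX2 and EPCAM did not. The summed level of these 8 genes was 117 to 133 FPKM in fed, 74.7 to 87.9 in starved and 139 to 171 in knockdown libraries. The list of 5 erythroid markers summed to 0.0501 to 0.351 FPKM in fed, 0.177 to 0.389 in starved and 47.1 to 49.5 in knockdown libraries. HBB, which encodes beta-globin, made up nearly all of the last. The 3 leukocyte markers summed to 0.235 to 0.969 FPKM in fed, 0.292 to 2.68 in starved and 0.614 to 5.73 in knockdown libraries, with CD3E at 0 throughout. The 3 endothelial markers summed to at most 0.965 FPKM, the liver marker ALB to at most 0.200, and the 4 fibroblast markers to between 1.64 and 3.81. The part of these markers in the results on AP-1 genes was not tested. SRSF1 itself stood at 2515 ± 63.5 normalized counts in fed, 3246 ± 85.4 in starved and 2409 ± 40.3 in knockdown cells (SD, n = 3 each). The SRSF1 message was thus less abundant in the knockdown than in starved cells (log2 fold change -0.42 ± 0.07, SE; limma adjusted p = 0.000997). Against fed cells the difference did not pass the test (-0.06 ± 0.07; limma adjusted p = 0.590). SRSF1 shares 6328 bases with AC015813.2, a protein-coding gene on the same strand. How counting treated reads in shared bases is not given in the sources used here.

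On a per-length scale JUN was by far the most abundant of the 9 messages in every library. Its level was 128 ± 5.50 FPKM in fed, 89.2 ± 10.3 in starved and 301 ± 44.8 in knockdown cells (SD, n = 3 each). In fed cells JUND (15.1 ± 1.69 FPKM), ATF3 (12.1 ± 0.143) and JUNB (8.30 ± 0.978) followed, with no overlap between neighbours in that order. The 5 remaining genes lay under 1 FPKM on average in fed cells: FOSL1 at 0.864, FOSL2 at 0.590, MAFF at 0.393, FOSB at 0.262 and FOS at 0.243. Among these only FOSB and FOS overlapped their neighbour. In starved cells the order was JUN, JUND, JUNB, ATF3, FOSL1, FOS, FOSL2, FOSB and MAFF, and JUNB overlapped ATF3, as did each neighbouring pair from FOS down to MAFF. In knockdown cells ATF3 (50.8 ± 8.80 FPKM), JUNB (39.0 ± 8.76) and JUND (38.0 ± 1.81) came next after JUN and overlapped one another in turn. FOS then led the FOS family, at 4.62 ± 0.403 FPKM, above FOSL1 (3.15 ± 0.725), FOSL2 (2.81 ± 0.167) and FOSB (2.36 ± 0.231), and MAFF was the lowest at 1.83 ± 0.510. FOS and FOSL1 did not overlap there, while FOSL1 overlapped FOSL2 and FOSB overlapped MAFF.

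**Figure D1:**
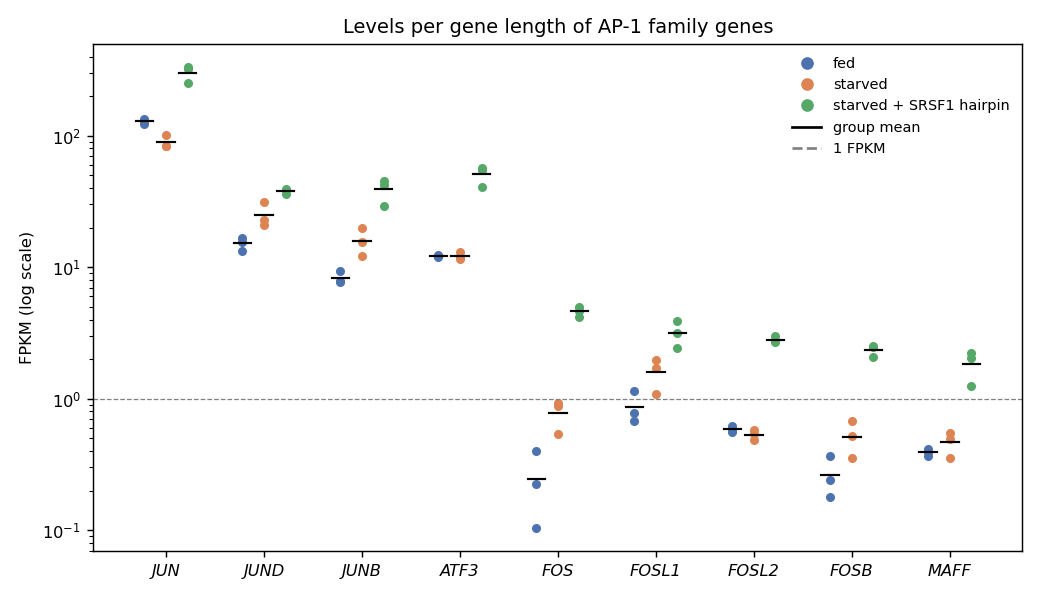
Level of each AP-1 family gene in FPKM (log axis), with 1 point per library for fed, starved and knockdown cells, a short black line at each group mean and a dashed line at 1 FPKM. JUN lies highest in every group, and FOS, FOSB, FOSL2 and MAFF lie under the dashed line in all fed and starved libraries and above it in all 3 knockdown libraries.

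The FOS family stayed a small part of the AP-1 message pool. Summed over FOS, FOSB, FOSL1 and FOSL2, its level was 1.17 to 1.46 FPKM for every 100 FPKM of the summed JUN family in fed libraries, 2.41 to 3.06 in starved libraries and 3.04 to 4.20 in knockdown libraries. Fed libraries did not overlap the others in this ratio, while starved and knockdown libraries overlapped. The sum of all 9 genes was 166 ± 8.45 FPKM in fed, 146 ± 20.6 in starved and 444 ± 61.1 in knockdown cells (SD, n = 3 each). JUN made up 76.4 to 77.7% of that sum in fed, 59.5 to 63.5% in starved and 66.9 to 68.5% in knockdown libraries, with no overlap between groups. JUNB took 4.69 to 5.41% in fed, 9.30 to 11.8% in starved and 7.77 to 9.38% in knockdown libraries, the last 2 groups overlapping. JUND took 8.44 to 9.53% in fed, 15.9 to 18.6% in starved and 7.40 to 10.5% in knockdown libraries, so that starved libraries stood above both other groups.

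The comparison of knockdown with starved cells, both without serum, asked what differed in starved cells that carried the SRSF1 hairpin. Across tested genes, knockdown libraries correlated at 0.936 to 0.962 with starved libraries and at 0.957 to 0.981 with fed ones. Why they lay nearer to fed libraries was not tested. All 9 AP-1 genes were higher in the knockdown and passed the test (limma, Benjamini-Hochberg adjusted p under 0.05 over all genes), where 22.5% of the 11123 tested genes were called higher. In such bulk samples more cells with a message and more message per cell cannot be told apart. For each gene the 3 knockdown libraries lay above the 3 starved ones, as they did for 24.8% of tested genes. FOS, FOSB, FOSL2 and MAFF reached 1 FPKM in knockdown libraries alone and so passed the filter only through the group in which they were high. FOSL1, JUN, JUNB, JUND and ATF3 passed it without that group. With no filter on level 17293 genes were tested, 16.5% were called higher, and all 9 members were still among them. The median log2 fold change of the 9 was 1.24, against -0.04 over all tested genes. Members and lists were chosen with earlier results of these data known, so the count has no p of its own. Rescaling to TPM put 59.5% of the called genes on the higher side, against 48.4% on the deposited scale. Of all tested genes, 2936 of 13105 were called higher with TPM and 2500 of 11123 on the deposited scale. The 9 members were called higher on both. With edgeR's quasi-likelihood test on the recovered reads of 8 libraries 19.3% of genes were called higher, again with all 9 members.

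FOS, whose product pairs with JUN proteins and which is the textbook serum-induced gene, lies on chromosome 14 (75278826 to 75282230, GRCh38, plus strand; ENSG00000170345). Its normalized counts were 4.50, 17.3 and 9.75 in the fed libraries, 40.1, 23.1 and 38.4 in the starved ones, and 181, 202 and 216 in the knockdown ones. The groups did not overlap, and the fed values rest on only 5, 18 and 11 reads. FOS was 5.90-fold higher in knockdown than in starved cells by the ratio of means (log2 fold change 1.66 ± 0.12 on the FPKM + 1 scale, SE; limma adjusted p = 4.52e-06). A pseudocount of 1 FPKM is larger than the starved level of FOS and understates its change. On the scale of normalized counts plus 1 its log2 fold change was 2.56 ± 0.38 (limma adjusted p = 0.000308).

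FOSB, a close paralog of FOS on chromosome 19 (45467995 to 45475179, plus strand; ENSG00000125740), had 13.5, 18.3 and 27.5 normalized counts in fed, 39.1, 50.7 and 26.7 in starved, and 158, 189 and 186 in knockdown libraries. Fed and starved values overlapped, and all knockdown values lay well above both. It was 4.57-fold higher than in starved cells (log2 fold change 1.15 ± 0.10, and 2.21 ± 0.29 on the count scale; limma adjusted p = 1.74e-05 and 0.000126). The whole of FOSB lies inside ERCC1, a DNA repair gene on the opposite strand. Whether counting used strand is not given in the sources used here, so their reads cannot be told apart. ERCC1 rose in the same comparison, from 202 ± 38.7 to 413 ± 68.6 normalized counts (limma adjusted p = 0.000439), and was at 463 ± 11.6 in fed cells, where FOSB was lowest.

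FOSL2, which encodes a FOS protein without the strong activation domain of FOS, lies on chromosome 2 (28392448 to 28417317, plus strand; ENSG00000075426). It varied least among replicates of the low genes, with 60.3, 53.9 and 57.6 normalized counts in fed, 52.1, 47.4 and 55.8 in starved, and 260, 291 and 268 in knockdown libraries. Fed and starved libraries overlapped, and every knockdown library was far above them. The knockdown level was 5.27-fold that of starved cells (log2 fold change 1.31 ± 0.08, and 2.38 ± 0.15 on the count scale; limma adjusted p = 1.54e-06 and 1.16e-06). FOSL1, the other FOS gene of that kind, is on chromosome 11 (65892049 to 65900573, minus strand; ENSG00000175592). It had 19.8, 17.3 and 29.3 normalized counts in fed, 44.1, 50.7 and 27.9 in starved, and 99.1, 61.9 and 80.6 in knockdown libraries. Its starved libraries spread widely, and the lowest of them fell within the fed range. FOSL1 was 1.97-fold higher in knockdown than in starved cells, the smallest change of the FOS family by ratio (log2 fold change 0.68 ± 0.16, and 0.98 ± 0.29 on the count scale; limma adjusted p = 0.00671 and 0.0184).

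Bases upstream of FOS, FOSB and JUN are printed as examples of letters of the kind that AP-1 and CREB/ATF proteins bind: FOS and FOSB to set these paralogs side by side, and JUN as the most abundant member. Other members hold such letters as near to their starts, among them MAFF and FOSL2. They run from 130 to 21 bases before the start, 5′ to 3′ on the gene's strand (RefSeq, GRCh38.p14; chr14:75278698-75278807 plus strand for FOS, chr19:45467866-45467975 plus strand for FOSB, chr1:58784068-58784177 minus strand for JUN). Capitals mark TGACG, TGACNTCA and TATAAA.
FOS: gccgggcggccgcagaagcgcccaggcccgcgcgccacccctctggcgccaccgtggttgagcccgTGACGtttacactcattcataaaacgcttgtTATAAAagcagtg
FOSB: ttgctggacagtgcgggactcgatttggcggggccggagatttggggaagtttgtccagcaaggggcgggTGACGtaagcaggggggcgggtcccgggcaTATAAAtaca
JUN: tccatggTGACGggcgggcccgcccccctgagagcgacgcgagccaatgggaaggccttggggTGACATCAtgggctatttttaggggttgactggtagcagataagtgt
FOS and FOSB hold TGACG and TATAAA at nearly matching distances: TGACG begins 64 and 60 bases, and TATAAA 33 and 30 bases, before the start. JUN holds TGACATCA beginning 67 bases before its start.

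RefSeq windows of 250 bases before the start were found for 8 of the 9 members, 10 windows in all, since ATF3 and MAFF have 2 starts each. FOSL1 has none in the table. TGACG, searched on both strands, was present in 7 of the 10 windows (all members found except ATF3) and in 21.2% of 34788 windows of all genes. TGACNTCA, which contains TGACG where N is G, stood in 1 window each of JUN, JUND, ATF3 and MAFF and in 6.84% of all windows. The palindrome TGACGTCA stood in JUND and MAFF and in 1.64% of all windows. TATAAA stood in FOS, FOSB, JUNB and 1 ATF3 window, and in 10.8% of all windows. Neither TGANTCA (6.59% of all windows) nor a CArG box, the SRF site (1.17%), was found in these windows of the members. Bases further than 250 before the start were not searched, so a site lying there would have been missed. The members' windows had a median GC content of 65.6%, against 58.0% over all windows. These matches describe letters and show no binding.

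Of the JUN genes, JUN is the strongest transcriptional activator, and its protein is the main target of the JNK kinases. It lies on chromosome 1 (58776845 to 58784048, minus strand; ENSG00000177606). JUN had 6015, 6352 and 6550 normalized counts in fed, 4070, 4969 and 4119 in starved, and 15806, 16356 and 12297 in knockdown libraries. The groups were fully separated, starved cells lowest and knockdown cells highest. JUN was 3.38-fold higher in knockdown than in starved cells (log2 fold change 1.74 ± 0.13, SE; limma adjusted p = 5.59e-06).

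JUNB, a weaker activator than JUN that can act against it, lies on chromosome 19 (12791486 to 12793315, plus strand; ENSG00000171223). Its normalized counts were 190, 194 and 234 in fed, 385, 496 and 305 in starved, and 1050, 1132 and 721 in knockdown libraries. These groups rose without overlap from fed to starved to knockdown cells. JUNB was 2.45-fold higher in knockdown than in starved cells (log2 fold change 1.24 ± 0.19; limma adjusted p = 0.000476). The gene lies wholly inside HOOK2, on the opposite strand, which went from 306 ± 12.8 to 419 ± 26.7 normalized counts (SD, n = 3; limma adjusted p = 0.00382). JUND, the member most widely expressed in resting cells, is on chromosome 19 (18279694 to 18281622, minus strand; ENSG00000130522). It had 348, 407 and 434 normalized counts in fed, 595, 825 and 550 in starved, and 1013, 941 and 1030 in knockdown libraries. The groups did not overlap, though starved replicate 2 came close to the knockdown range. Its change from starved cells was the smallest of the 9 by ratio, 1.51-fold (log2 fold change 0.60 ± 0.14; limma adjusted p = 0.00567).

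ATF3, a stress-induced factor that pairs with JUN proteins and represses as a pair with itself, lies on chromosome 1 (212565334 to 212620777, plus strand; ENSG00000162772). Its normalized counts were 662, 659 and 674 in fed, 657, 717 and 628 in starved, and 2996, 3124 and 2232 in knockdown libraries. The fed libraries lay within the starved range, and the lowest knockdown library was 3.11-fold above the highest starved one. ATF3 was 4.17-fold higher in knockdown than in starved cells (log2 fold change 1.96 ± 0.12; limma adjusted p = 2.00e-06), and 0.153% of tested genes had a larger log2 fold change. MAFF, on chromosome 22 (38200767 to 38216507, plus strand; ENSG00000185022), had 27.9, 31.7 and 30.1 normalized counts in fed, 27.0, 37.5 and 41.8 in starved, and 154, 168 and 95.02 in knockdown libraries. Here too fed and starved libraries overlapped and knockdown libraries stood above them. MAFF was 3.92-fold higher in knockdown than in starved cells (log2 fold change 0.93 ± 0.13, and 1.92 ± 0.25 on the count scale; limma adjusted p = 0.000220 and 0.000128). MAFF overlaps PLA2G6 on the opposite strand, which had 207 ± 11.3 normalized counts in starved and 179 ± 18.9 in knockdown cells and did not pass the test (limma adjusted p = 0.191).

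**Figure D2:**
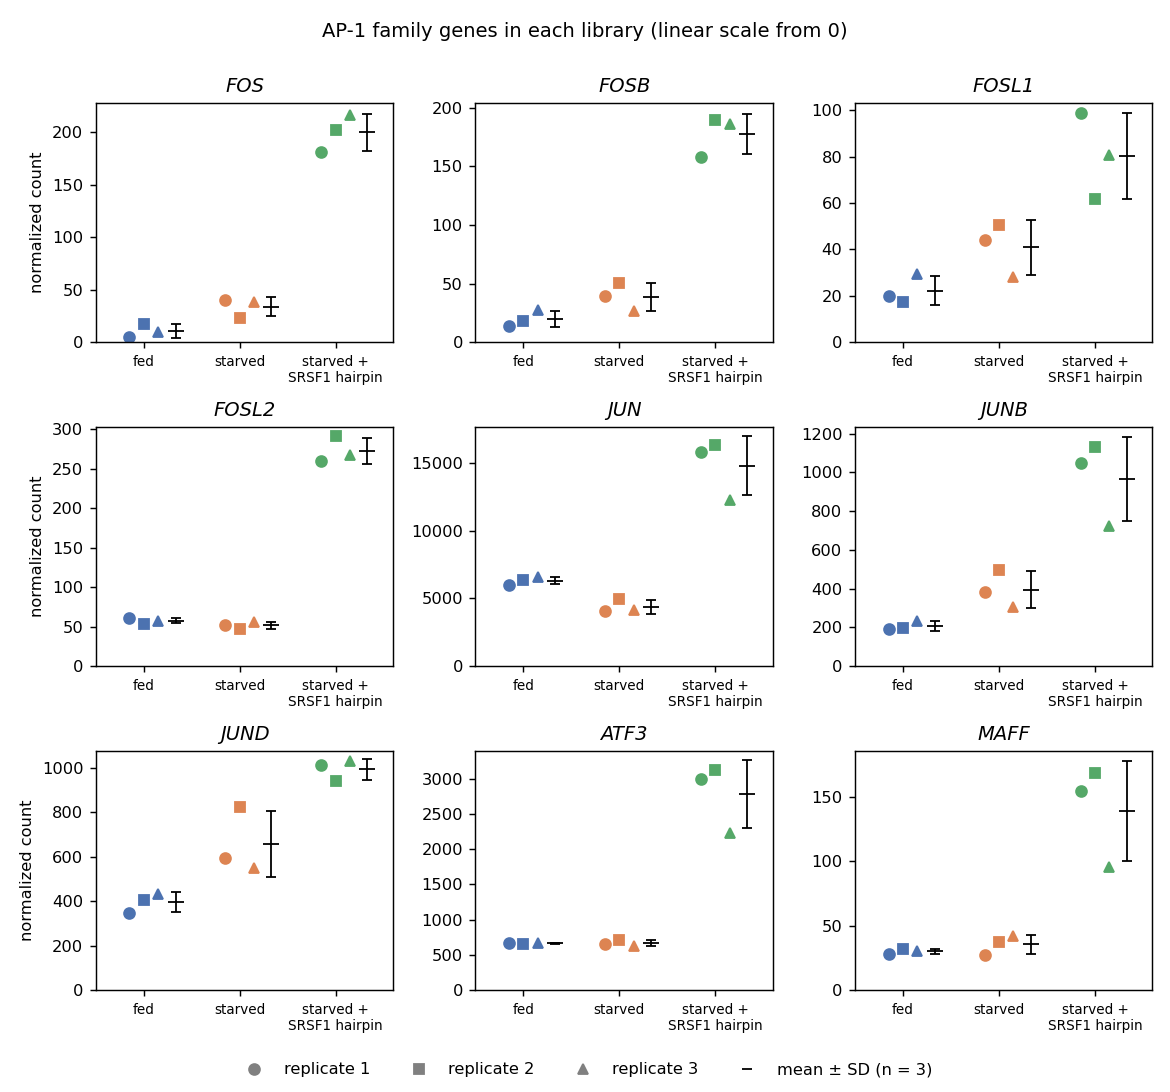
Normalized counts of each AP-1 family gene (linear axis from 0, a separate scale per gene) in fed, starved and knockdown libraries, with a symbol for each replicate and the mean ± SD (n = 3) beside them. Knockdown libraries lie above all others for every gene, and knockdown replicate 3 (triangle) is the lowest of its group for JUN, JUNB, ATF3 and MAFF.

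Knockdown replicate 3 was the lowest of its group for JUN, JUNB, ATF3 and MAFF and the highest for FOS and JUND. Without it the ratio to starved cells was 3.67 for JUN, 2.76 for JUNB, 4.58 for ATF3, 4.55 for MAFF, 5.66 for FOS and 1.49 for JUND, and all 9 genes were still called higher. Each also remained called when any other library was left out, with log2 fold changes from 0.49 (JUND, without starved replicate 3) to 2.01 (ATF3, without starved replicate 2).

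The comparison of starved with fed cells asked what 12 h without serum did. Here the family did not move together: FOS, FOSL1, JUNB and JUND rose, JUN fell, and FOSB, FOSL2, ATF3 and MAFF did not pass the test. Over all tested genes 21.5% were called higher and 21.3% lower (42.8% in all), and groups did not overlap for 59.2% (30.6% with starved cells higher), so that 5 of 9 members called, and 4 of 9 without overlap, 3 of them higher, lie near the background. Rescaling to TPM left 33.5% of the called genes on the higher side, against 50.3% on the deposited scale. FOS, JUNB and JUND kept their rise and JUN its fall on both scales.

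JUNB rose with a log2 fold change of 0.84 ± 0.19 (limma adjusted p = 0.00498), from 206 ± 24.3 to 395 ± 96.1 normalized counts (SD, n = 3). JUND rose by 0.68 ± 0.14 (limma adjusted p = 0.00317), from 396 ± 44.3 to 657 ± 148. Starved replicate 2 was the highest starved library for both, and without it they rose by 0.67 and 0.51. JUN moved the other way, with a log2 fold change of -0.52 ± 0.13 (limma adjusted p = 0.00838), from 6305 ± 271 to 4386 ± 505 normalized counts. The 3 JUN genes thus differed in direction within the same libraries. FOS rose by 0.52 ± 0.12 (limma adjusted p = 0.00552), and by 1.72 ± 0.38 on the count scale, from 10.5 ± 6.44 to 33.9 ± 9.32 normalized counts.

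FOSL1 was called higher on starvation (log2 fold change 0.47 ± 0.16; limma adjusted p = 0.0388), with overlapping libraries. The call was lost without fed replicate 1 (limma adjusted p = 0.107), fed replicate 2 (0.130), starved replicate 1 (0.112) or starved replicate 2 (0.125), with no filter (0.0721), and with edgeR's quasi-likelihood test on recovered reads (adjusted p = 0.120). FOSB, at 19.8 ± 7.10 normalized counts in fed and 38.8 ± 12.0 in starved cells, did not pass the test (log2 fold change 0.26 ± 0.10; limma adjusted p = 0.0619). It passed on the count scale (0.95 ± 0.29; limma adjusted p = 0.0206) and without starved replicate 3 (0.34; limma adjusted p = 0.0357). ATF3 had a log2 fold change of 0.0031 with a 95% interval of -0.26 to 0.27, FOSL2 of -0.05 (-0.22 to 0.11) and MAFF of 0.07 (-0.21 to 0.35). For these 3 the intervals bound the change on the FPKM + 1 scale but do not show equal levels.

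**Figure D3:**
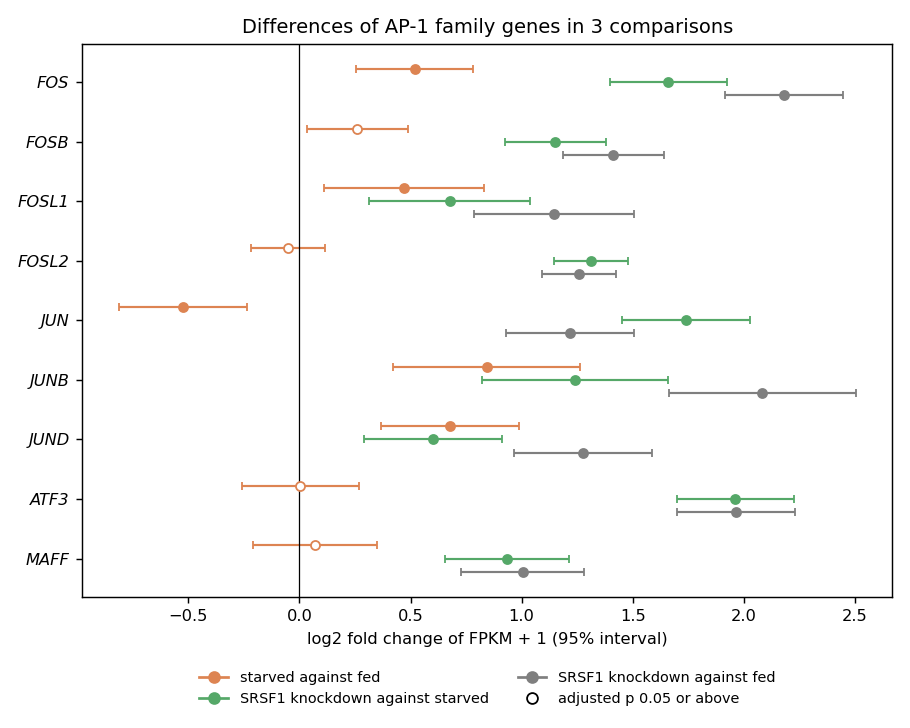
Log2 fold change of FPKM + 1 with its 95% interval for each AP-1 family gene in the 3 comparisons, filled where the limma adjusted p was under 0.05. Knockdown against starved and against fed cells lies right of 0 for all 9 genes, while starved against fed cells lies right of 0 for FOS, FOSL1, JUNB and JUND, left of 0 for JUN and open for the rest.

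Knockdown cells were also set against fed cells. This comparison shares its libraries with the other 2 and differs in serum as well as in the hairpin. All 9 genes stood above fed cells and passed the test, where 9.27% of tested genes were called higher and 20.1% had all knockdown libraries above all fed ones. With no filter 5.97% were called higher, and with edgeR on recovered reads 8.71%, the 9 members among them both times. Over all genes 18.5% were called either way. The count over all genes fell whichever fed library was left out, from 2058 to 853, 1002 and 1062 without fed replicates 1, 2 and 3. Without knockdown replicates 1, 2 and 3 it was 1574, 1563 and 2499. The 9 members were called each time. Starved cells held less JUN than fed cells, and knockdown cells 2.35-fold more than fed cells (log2 fold change 1.22 ± 0.13; limma adjusted p = 0.000276). The ratio to fed cells was 19.0 for FOS, 8.99 for FOSB, 4.76 for FOSL2, 4.69 for JUNB, 4.65 for MAFF, 4.19 for ATF3, 3.64 for FOSL1 and 2.51 for JUND. FOS had a log2 fold change of 2.18 ± 0.12 (limma adjusted p = 3.00e-06), and of 4.28 ± 0.38 on the count scale. On the FPKM + 1 scale 0.0539% of tested genes had a larger change. FOS passed the filter only through the knockdown libraries, so this rank adds no support of its own. JUNB followed with 2.08 ± 0.19 (limma adjusted p = 8.89e-05), and ATF3 with 1.96 ± 0.12 (limma adjusted p = 4.56e-06).

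Other basic leucine zipper genes of the wider AP-1 group did not move as a block in knockdown against starved cells. Of 13 listed, 10 were tested, 3 rose and 2 fell, with a median log2 fold change of -0.03 against -0.04 over all tested genes, where 22.5% of all tested genes were called higher and 23.9% lower (46.4% either way). BATF3, which pairs with JUN proteins, rose from 58.7 ± 5.63 to 106 ± 22.9 normalized counts and MAFA from 27.7 ± 8.32 to 60.1 ± 15.2 (limma adjusted p = 0.00215 and 0.00473). Fed cells held 133 ± 4.51 of BATF3 and 34.4 ± 4.11 of MAFA. Knockdown against fed cells, BATF3 had a log2 fold change of -0.26 and did not pass the test (limma adjusted p = 0.133). ATF2, another partner of JUN, was lower at 818 ± 193 against 1105 ± 164 (limma adjusted p = 0.0437), a call that was lost without any fed library (adjusted p = 0.0574 to 0.0622), starved replicate 1 (0.134), starved replicate 3 (0.139), knockdown replicate 1 (0.109) or knockdown replicate 2 (0.148). It was also lost with no filter (0.0748), with TPM (0.143) or quantile scaling (0.0948), with only the 2 groups in the fit (0.0851) and with edgeR (0.164). On starvation 3 of these 10 rose and 3 fell, where 21.5% of all tested genes were called higher and 21.3% lower.

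Genes that act upstream were more often lower than higher in the knockdown. Of 21 tested kinases and factors (22 listed), 10 fell and 3 rose, with a median log2 fold change of -0.24, beside 23.9% of all tested genes called lower and 22.5% higher. ELK4, an ETS factor that binds the FOS promoter with SRF, fell from 1457 ± 361 to 591 ± 36.3 normalized counts (log2 fold change -1.08 ± 0.15; limma adjusted p = 0.000278), with 601 ± 82.6 in fed cells. The difference between knockdown and fed cells did not pass the test (log2 fold change -0.016; limma adjusted p = 0.958). RPS6KA3, an ERK-activated kinase gene, fell from 1796 ± 273 to 1027 ± 183 (limma adjusted p = 0.00142), with 1497 ± 100.4 in fed cells. ELK3, a related ETS factor, rose from 193 ± 11.3 to 365 ± 55.6 (limma adjusted p = 0.000428), with 384 ± 38.4 in fed cells. RPS6KA4, the gene of the nuclear kinase MSK2, rose from 145 ± 28.6 to 480 ± 123 (log2 fold change 1.42 ± 0.17; limma adjusted p = 9.05e-05) and was at 523 ± 25.1 in fed cells. On starvation 6 of the 21 rose and 4 fell, near the share over all tested genes (21.5% higher, 21.3% lower).

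Of 9 tested genes that control the turnover of FOS and JUN products (10 listed), 1 rose and 2 fell in the knockdown, with a median log2 fold change of 0.11, and neither count exceeds the share over all tested genes (22.5% higher, 23.9% lower). ZFP36, whose protein speeds decay of AU-rich messages such as that of FOS, went from 49.3 ± 10.3 normalized counts in fed cells to 83.4 ± 6.32 in starved and 172 ± 10.1 in knockdown cells (knockdown against starved, log2 fold change 0.85 ± 0.10; limma adjusted p = 0.000124). Its paralog ZFP36L2 fell in the knockdown, 435 ± 30.0 against 817 ± 67.6 (limma adjusted p = 5.61e-05), with 436 ± 27.8 in fed cells. COP1, a ubiquitin ligase gene for JUN, was lower at 541 ± 44.5 against 652 ± 46.0 (limma adjusted p = 0.0409), and that call was lost on leaving out any library except starved replicate 1 and knockdown replicate 2 (adjusted p = 0.0561 to 0.1496), with TPM (0.169) or quantile scaling (0.117), with only the 2 groups in the fit (0.0946), with the replicate block (0.0599) and with edgeR (0.0698). On starvation 2 of these 9 genes rose, near the 21.5% of all tested genes called higher, and 0 fell, where 21.3% were called lower.

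Textbook AP-1 targets were mostly too low to test: 13 of 22 listed, among them MMP1, MMP3 and MMP9, did not reach the filter. Of the 9 tested, 6 rose and 2 fell in knockdown against starved cells, with a median log2 fold change of 0.59, where 22.5% of all tested genes were called higher and 23.9% lower. TGFB1, a growth factor gene, rose from 255 ± 22.5 to 504 ± 39.9 normalized counts (log2 fold change 0.87 ± 0.09; limma adjusted p = 5.19e-05) and was at 535 ± 40.4 in fed cells. HBEGF, an EGF receptor ligand gene, rose from 79.3 ± 6.02 to 151 ± 30.5 (limma adjusted p = 0.00227), with 71.5 ± 16.6 in fed cells. The metalloproteinase inhibitor gene TIMP1 rose from 716 ± 173 to 1188 ± 196 (limma adjusted p = 0.00456), with 962 ± 57.2 in fed cells. GJA1, which encodes connexin 43, fell from 1923 ± 170 to 991 ± 102 (log2 fold change -0.93 ± 0.10; limma adjusted p = 4.55e-05), with 1859 ± 38.7 in fed cells. On starvation 1 of the 9 rose and 4 fell, beside 21.5% and 21.3% of all tested genes. Against fed cells 2 of the 9 were called higher and 2 lower in the knockdown, with a median log2 fold change of 0.26. Over all tested genes 9.27% were called higher in that comparison and 18.5% either way. Whether the AP-1 members had a part in these changes was not tested.

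**Figure D4:**
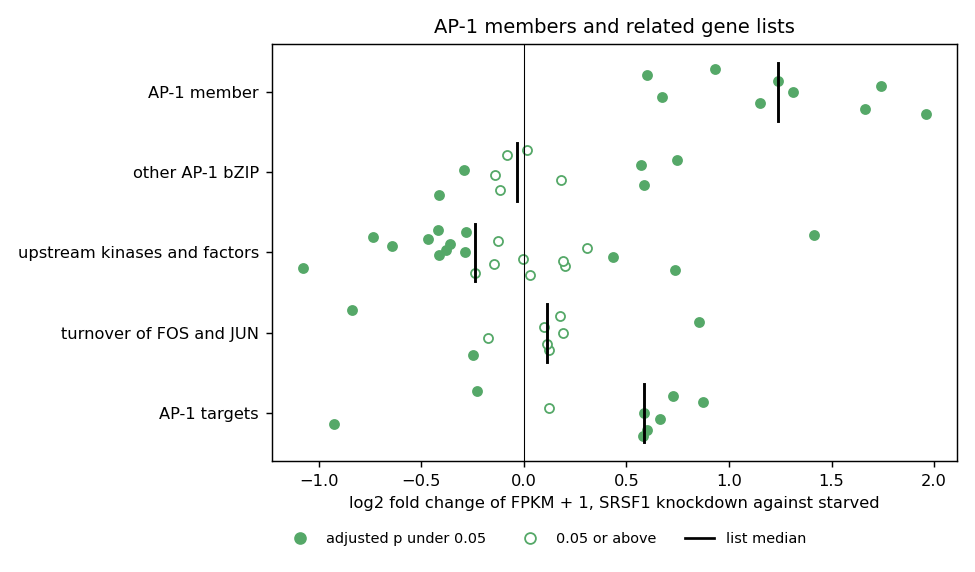
Log2 fold change of FPKM + 1 in knockdown against starved cells for each tested gene of the AP-1 family and of 4 related lists, filled where the limma adjusted p was under 0.05, with the median of each list as a black line. The 9 family members all lie right of 0, whereas the genes of each of the 4 other lists lie on both sides.

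Genes whose profile was closest to a member's were found by the root mean square difference of log2(FPKM + 1) over the 9 libraries, after each gene's own mean was taken away. For FOS these were GADD45B (0.23), PGK1 (0.26) and DUSP5 (0.27), and for JUNB they were GADD45B (0.22), GADD45A (0.29) and PPP1R15A (0.33). FOSB lay closest to PPP1R15A (0.06), CCL5 (0.09) and EPHA2 (0.10), and FOSL2 to ETV5 (0.10), HILPDA (0.10) and TCEAL7 (0.13). ATF3 lay closest to DHRS2 (0.10), CSRNP1 (0.15) and PGK1 (0.18), and JUN to ENO2 (0.12), ADAMTS1 (0.19) and HSPB8 (0.19). For MAFF the nearest were NRN1 (0.10), LBH (0.11) and UPP1 (0.13), for FOSL1 GDF15 (0.16), ALAS1 (0.19) and BTG2 (0.21), and for JUND PFKFB4 (0.16), ALAS1 (0.19) and SLC2A1 (0.21). Within the family FOSB and FOSL2 were each other's nearest member (0.17), as were FOSL1 and JUND (0.17) and FOS and ATF3 (0.31). FOS, FOSB, FOSL2 and MAFF lay under 1 FPKM in fed and starved cells, where adding 1 FPKM compresses changes. Genes near to them on this scale therefore need not change by a like ratio. From starved to knockdown cells FOSB went from 38.8 to 178 normalized counts and PPP1R15A from 754 to 1680. FOSL2 went from 51.8 to 273 and ETV5 from 9.71 to 115.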

How the data were processed

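RNA was sequenced from mRNA libraries of 293T cells, and groups and replicate numbers come from the sample titles. The table is named as FPKM, but its deposited signal values turned out to be read numbers scaled by a single factor in each library: 100% of the values in all 9 libraries were whole multiples of 1 step (relative tolerance 1e-08). For starved replicate 1 the step was so near 1 that its recovered reads were left out. Aligner and counting tool are not given in the sources used here. Per the submitters' processing notes the build was mm10, a mouse genome, whereas 19830 of 19849 identifiers found in GENCODE release 29 lie at an overlapping human GRCh38 position.

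FPKM was computed as value per kilobase and per 1000000 of the mean library total (13565169), the same for every library. A gene needed 1 FPKM in 3 or more libraries to be tested (11123 were, 8843 were not). Log2(FPKM + 1) was fitted with limma (trend, 3 group means over 9 libraries), two-sided, and p-values were adjusted by Benjamini-Hochberg across those genes (threshold 0.05). Ratios are of mean normalized counts. "Count scale" means log2(normalized count + 1). Members and gene lists were chosen with earlier results of these data known. Named genes are the members, SRSF1, up to 4 called genes with the largest change per list, and the 3 nearest profiles per member. ERCC1, HOOK2, PLA2G6 and AC015813.2 (overlapping genes) and the marker genes stand outside that rule. Some genes that the rule names are not reported here. The fit was also run on simulated data, with an outcome not reported here. Changes were planted only in genes above a floor of mean fed count that FOS, FOSB, FOSL1 and MAFF do not reach. The simulation therefore does not cover changes at the level of those genes. The settings varied were pseudocount, filter, scaling, variance model, groups in the fit, replicate block, edgeR's quasi-likelihood test on recovered reads of 8 libraries, and leaving out each library. Models were fitted with limma 3.58.1 and edgeR 4.0.16 under R 4.3.3, and summaries and figures made with pandas 2.3.3, numpy 2.4.6 and matplotlib 3.10.9 under Python 3.11.15.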

Additional observations from a re-analysis of the deposited data

How the results depend on the processing

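All 9 AP-1 genes kept their rise and their call in knockdown against starved and against fed cells under every setting in which they could be tested. With a filter of 5 FPKM, FOS, FOSB, FOSL1, FOSL2 and MAFF were not tested. The 4 members left were called higher in each of these comparisons, and on starvation 3 were called, 2 higher and 1 lower. Of 7415 genes then tested, 3416 were called in knockdown against starved cells, 1403 of them higher. In knockdown against fed cells 1591 were called, 807 of them higher, and in starved against fed cells 3119, 1838 of them higher. Leaving out 1 library gave 853 to 2499 genes called in knockdown against fed cells. On starvation, values near 0 changed sign: FOSL2 was at 0.11 with quantile scaling, and ATF3 at -0.095 with TPM, -0.0015 with median ratio and -0.076 with quantile scaling and -0.015 with edgeR, none of them called; leaving out 1 library put ATF3 between -0.046 and 0.043. The cause was not tested. FOSB passed on starvation with a pseudocount of 0.1 (limma adjusted p = 0.0288) or 0.5 (0.0442), with TPM (0.0425) and with quantile scaling (0.0197). TPM scaling moved the median log2 fold change of all genes on starvation from 0.03 to -0.07, over 13105 genes tested. Deviations of same-numbered libraries correlated from -0.56 to 0.62, and not every library correlated best with its own number. Between starved and knockdown cells the same-numbered libraries correlated at 0.09, 0.62 and 0.37. Fed replicate 3 correlated at 0.63 with starved replicate 2 and at 0.52 with knockdown replicate 2. From 3 libraries per group it cannot be decided whether replicate numbers pair the libraries. With the replicate block, 4826, 5199 and 2049 genes were called in starved against fed, knockdown against starved and knockdown against fed cells, against 4763, 5160 and 2058 without it; FOSL1 on starvation (limma adjusted p = 0.0555) and COP1 in the knockdown (0.0599) were not called. Low read numbers limit FOS, FOSB, FOSL1 and MAFF in fed and starved cells.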
